A study of Mus musculus with 6 samples.

Results

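Hypoxia sensing and response genes of cortical pericytes were followed across 6 single-cell RNA libraries of the mouse brain. The 10 genes were taken by name: Epas1, Hif1a, Egln1, Egln3, Cox4i2, Higd1b, Ndufa4l2, Adm, Bnip3 and Ndrg1. They were chosen with earlier results of these data known. All 10 were found in each of the 3 deposited count tables, out of 22833 genes in the table of the NG2 line, 21008 in that of the Tbx18 line, 19679 in that of the naive libraries and 23494 in any of them. The questions were at what level pericytes carried these genes beside the other sorted cell types, and how these levels compared after ischemic and after physical injury.

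Cells sense oxygen mainly through the hypoxia-inducible factors (HIF). Hif1a and Epas1 encode the oxygen-labile alpha subunits, and Egln1 and Egln3 encode prolyl hydroxylases that mark these subunits for degradation while oxygen is present. The alpha subunits are controlled largely at the protein level, so their mRNA is not a measure of HIF activity. When stabilised, HIF binds a short core motif near genes such as Egln3, Adm, Bnip3 and Ndrg1 and raises their transcription. Cox4i2, Ndufa4l2 and Higd1b encode mitochondrial proteins with a more widely expressed paralog each (Cox4i1, Ndufa4 and Higd1a), and these 3 genes are well known as markers of brain pericytes. Pericytes wrap the capillaries of the brain, which deliver its oxygen, and Cox4i2 has been tied to oxygen sensing in other oxygen-sensing cells.

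All cells were sorted from cortex as tdTomato-positive and DAPI-negative, so that every library was made of living cells carrying the lineage reporter. The reporter Ai14-flx was switched on by tamoxifen through either NG2-Cre-ERT2 or Tbx18-CreERT2, both of which act in pericytes and also in other cells: NG2 (Cspg4) in oligodendrocyte precursors, and Tbx18 in smooth muscle cells. Both lines were sampled from mice aged 3 to 4 months of both sexes, as naive cortex, 3 days after physical injury (an injection of saline) and 3 days after ischemic injury (an injection of ET-1/L-NAME, which constricts vessels). Tamoxifen was given 7 days before injury. Physical injury was thus the control for ischemic injury, and both injured groups had received an injection. Each of the 6 groups was 1 library of pooled mice, without a replicate. No difference between groups could therefore be tested, and the 95% intervals given here (exact Poisson for levels, exact binomial for ratios and shares) allow for counting error and leave out the spread between mice, sorts and libraries.

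The libraries held 4306, 2563 and 3586 cells in the NG2 line and 686, 3845 and 2047 in the Tbx18 line (naive, physical and ischemic, the order used throughout), with 20264659, 24674494 and 54276245 and 3153996, 30196989 and 20308437 unique molecular identifiers (UMIs). At most 5 cell barcodes were shared by any pair of libraries. Levels are the UMIs of a gene in the summed cells of a class, per 1000000 UMIs of those cells (CPM). Classes are the deposited cluster numbers, with the study's cell type names where fixed marker genes bore them out. Pericytes were clusters 0, 1 and 2 of the NG2 line (3243, 1106 and 1085 cells) and cluster 2 of the Tbx18 line (226, 433 and 86 cells). The 6 pericyte markers (Vtn, Abcc9, Kcnj8, Atp13a5, Pdgfrb and Rgs5) summed to 33604, 33025 and 33346 CPM in the former, and smooth muscle markers to 1819, 1701 and 1915 CPM. In the Tbx18 pericytes the pericyte markers were lower after injury (28456, 18165 and 17467 CPM), while smooth muscle markers summed to 1539, 5427 and 2517 CPM and endothelial markers to 157, 786 and 1181 CPM. In the naive Tbx18 library clusters 3 and 4 also carried pericyte markers (19957 and 13944 CPM), so these clusters were not compared between naive and injured cortex. NG2 clusters 1 and 6 had no fixed marker among their 10 leading genes, and were kept as pericytes and OPC for their summed markers (36267, 36938 and 36246 CPM of pericyte markers in cluster 1, and 11815, 12207 and 10368 CPM of OPC markers in cluster 6). The remaining clusters are given by number. Among them, NG2 cluster 8, mesenchymal-like pericytes in the study, held pericyte markers at 22938, 23818 and 21053 CPM. The study also names NG2 cluster 10 canonical pericytes and Tbx18 cluster 4 vascular-genic pericytes. None of these clusters was summed into the pericytes here. Tbx18 cluster 0, endothelial in the study, held endothelial markers at 12741, 14689.7 and 14737 CPM but was led by hemoglobin genes.

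All 10 genes are protein-coding, and in GRCm38, the build of the files, they lie at chr17:86753700-86833410 (Epas1), chr12:73901375-73947530 (Hif1a), chr8:124908587-124949324 (Egln1), chr12:54178981-54203860 (Egln3), chr2:152754173-152765037 (Cox4i2), chr11:102835849-102838040 (Higd1b), chr10:127514967-127517154 (Ndufa4l2), chr7:110627661-110629820 (Adm), chr7:138890836-138909519 (Bnip3) and chr15:66929318-66969640 (Ndrg1). Hif1a and Egln3 share a chromosome, as do Adm and Bnip3, without being neighbours. RefSeq promoter windows (GRCm38.p6, 250 bases before to 50 bases after the start site) were matched for 5 of the 10 genes, Hif1a, Egln1, Egln3, Adm and Bnip3. The core of the HIF motif was searched on both strands as ACGTG or GCGTG, with overlapping matches each counted. It was present in all 5 windows, and in 43.8% of all 32851 windows of this length, so that its presence alone sets these genes little apart. The windows of Adm and Bnip3 are shown because these are the response genes whose levels are compared between cell types and injuries below. Each is written from 5′ to 3′ on the strand of its gene, with motif matches of either strand in capitals, and they lie at chr7:110627407-110627706 (plus strand) and chr7:138909457-138909756 (minus strand).
Adm: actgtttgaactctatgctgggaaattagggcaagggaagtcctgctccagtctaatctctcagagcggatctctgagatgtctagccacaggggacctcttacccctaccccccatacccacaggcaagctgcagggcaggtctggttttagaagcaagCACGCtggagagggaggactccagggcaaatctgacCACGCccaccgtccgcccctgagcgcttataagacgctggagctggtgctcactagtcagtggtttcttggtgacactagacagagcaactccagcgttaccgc
Bnip3: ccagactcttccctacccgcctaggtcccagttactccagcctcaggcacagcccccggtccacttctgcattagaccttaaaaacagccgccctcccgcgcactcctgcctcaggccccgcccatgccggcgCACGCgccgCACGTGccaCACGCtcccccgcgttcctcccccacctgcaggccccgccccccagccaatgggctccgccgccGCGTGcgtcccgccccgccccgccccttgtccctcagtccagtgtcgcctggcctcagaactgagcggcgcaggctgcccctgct
The Adm window held 2 matches, both within 100 bases before the start site, and the Bnip3 window held 5, including an overlapping pair on opposite strands of the same palindromic stretch. A match is a description of these letters and not a measured binding site.

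Of the alpha subunits, Epas1 was the one that set vascular cells apart. In NG2 pericytes Epas1 stood at 568, 551 and 579 CPM in the naive, physical and ischemic libraries. Smooth muscle cells held 749, 636 and 737 CPM, and endothelial cells held the highest level of any class in this line, 1201, 1004 and 842 CPM. The order was thus endothelial, smooth muscle, pericyte in all 3 libraries. Glial classes were far below, with 121, 108 and 75.2 CPM in oligodendrocyte precursors (OPC), 29.8, 68.7 and 63.1 CPM in oligodendrocytes (OL), 42.3 and 20 CPM in the injured libraries' radial glia-like progenitors (RGP), and 6.12 CPM in microglia after ischemic injury. After thinning each cell to 1000 UMIs, 41.3%, 40.9% and 43.3% of NG2 pericytes had an Epas1 UMI, against 59.0%, 61.1% and 54.2% of endothelial cells and 2.02%, 8.90% and 5.94% of OL. Before thinning the share of pericytes was 82.6%, 86.4% and 83.3%, at a median of 3821, 4684 and 4202 UMIs per cell, whereas OL had medians of 13252, 23779 and 29600.5. Tbx18 pericytes held 747, 628 and 695 CPM of Epas1, again less than smooth muscle cells (877 and 659 CPM in the naive and physical libraries) and cluster 0 (1157, 1019.8 and 1139 CPM).

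Hif1a had its highest level outside the vascular classes. NG2 pericytes held 108, 90.1 and 111 CPM, and smooth muscle cells 134, 129 and 132 CPM. The highest level lay in microglia, at 336 CPM (95% interval 317 to 356) in the ischemic library and 452 CPM (95% interval 399 to 511) in the 36 microglia of the physical library. In Tbx18 pericytes Hif1a stood at 96.2, 125 and 176 CPM. Hif1a was higher in ischemic than in naive cells of several classes, at 89.4, 124 and 166 CPM in NG2 endothelial cells, 119, 145 and 202 CPM in NG2 cluster 8, 130.1, 140.0 and 199 CPM in OPC and 87.6, 147 and 172 CPM in Tbx18 cluster 0. In all 4 of these classes, and in Tbx18 pericytes, the ischemic library was the highest and the naive library the lowest. NG2 pericytes did not follow that order, since the physical library was the lowest of the 3. Hif3a, the remaining alpha subunit, was close to absent from NG2 pericytes, with 2, 0 and 1 UMIs in all.

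**Figure D1:**
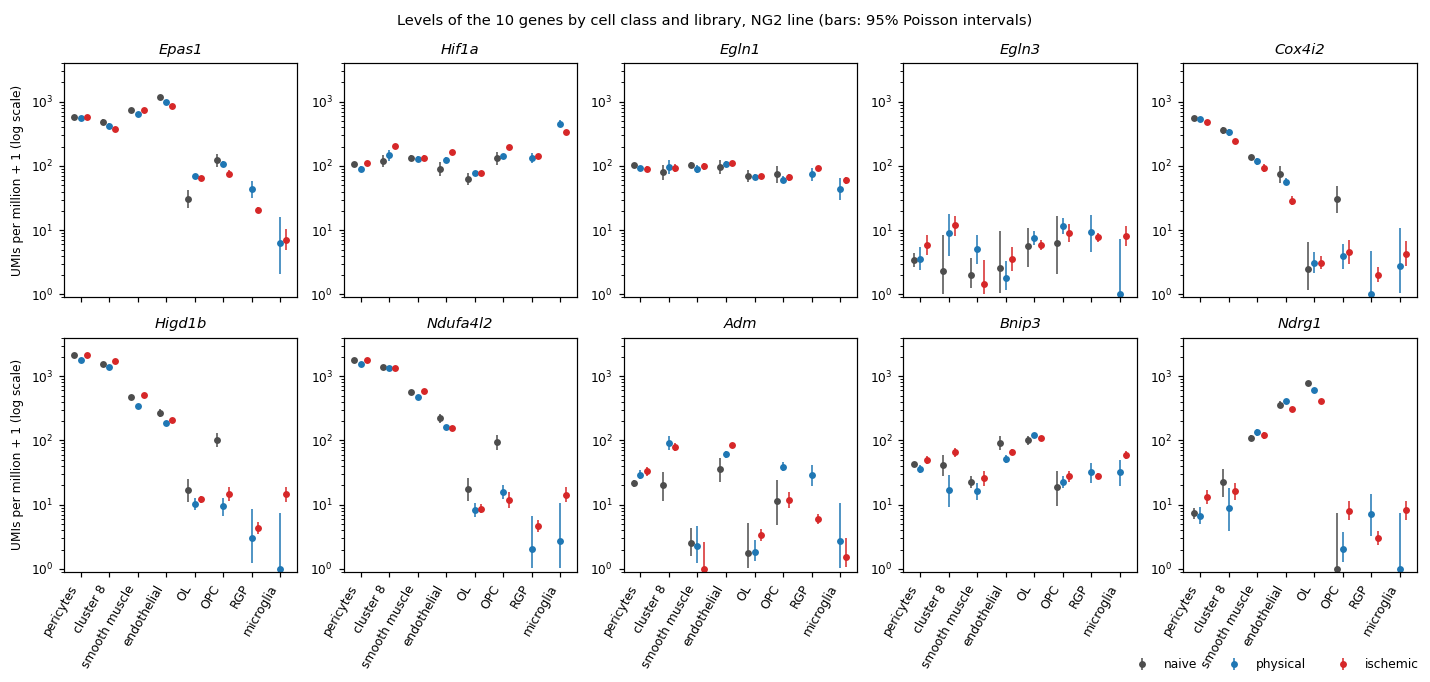
Levels of the 10 genes by cell class in the 3 libraries of the NG2 line (CPM + 1, log axis; points are the summed cells of a class in 1 library, bars are 95% Poisson intervals for counting error). Higd1b, Ndufa4l2 and Cox4i2 were highest in pericytes (Higd1b 2149, 1776 and 2177 CPM), Epas1 in endothelial cells, Hif1a in microglia and Ndrg1 in OL.

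Of the prolyl hydroxylases, Egln1 was present at a similar level in most classes and Egln3 was barely detected in pericytes. Egln1 stood at 104, 91.1 and 88.2 CPM in NG2 pericytes, 104, 88.1 and 97.8 CPM in smooth muscle cells and 95.6, 105 and 110.1 CPM in endothelial cells. Across the NG2 classes of at least 50 cells it spanned 58.7 to 110.1 CPM. Egln2, a further hydroxylase of this family, was lower, at 39.8, 30.6 and 43.8 CPM in NG2 pericytes. Egln3 gave 31, 14 and 23 UMIs in the NG2 pericytes, or 2.42, 2.61 and 4.96 CPM, and 0, 3 and 0 UMIs in the Tbx18 pericytes, where a count of 0 in the ischemic library allowed up to 10.5 CPM. Its highest levels were 24.5 and 20.7 CPM in Tbx18 cluster 4 after physical and ischemic injury. In NG2 pericytes the ischemic level of Egln3 was the highest. Egln3 lay under 10 CPM in the pericytes of every library, the lowest mean at which a change was counted, so none was called.

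The 3 mitochondrial isoforms were the genes most typical of pericytes. Cox4i2, a subunit of cytochrome c oxidase, stood at 552, 545 and 482 CPM in NG2 pericytes. Higd1b, of the hypoxia-induced domain family, stood at 2149, 1776 and 2177 CPM. Ndufa4l2, a relative of a respiratory chain subunit, stood at 1806, 1551 and 1799 CPM. Against the mean of the other named types (4, 5 and 6 types in the 3 libraries), these were 9.05, 14.9 and 21.2 times as high, on CPM + 1, for Cox4i2, 9.86, 16.2 and 17.0 times for Higd1b and 8.01, 11.7 and 13.7 times for Ndufa4l2. Among these types the next highest level was that of smooth muscle, the other mural cell. Clusters 8 and 10 were not among them. Cluster 8 stood nearer to pericytes than smooth muscle did, with Higd1b at 73.2%, 79.5% and 77.9% of the pericyte level. Its Ndufa4l2 stood at 77.4%, 88.0% and 75.4% and its Cox4i2 at 65.2%, 61.4% and 50.9%. Over smooth muscle alone the folds were 4.06, 4.64 and 5.14 for Cox4i2, 4.47, 5.23 and 4.25 for Higd1b and 3.18, 3.27 and 3.04 for Ndufa4l2. These 3 were the genes at least 2-fold higher in pericytes in each NG2 library, out of 9 with a mean of at least 10 CPM, where 10.1%, 10.9% and 11% of all genes tested were. Ndrg1 was at least 2-fold lower in each, where 17.8%, 19.1% and 19.8% of all genes were. The clusters were drawn from the same expression values, so these folds describe the classes and are not a test.

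The Tbx18 line gave the same 3 genes as at least 2-fold higher in pericytes in each library. Cox4i2 stood at 625, 262 and 275 CPM in its pericytes, Higd1b at 1421, 891 and 968 CPM and Ndufa4l2 at 1179, 996 and 814 CPM. In each case the naive level was the highest. Folds over the mean of the other types were 4.36, 11.5 and 109.7 for Cox4i2, 5.43, 17.4 and 345 for Higd1b and 3.47, 11 and 302 for Ndufa4l2, against 12%, 8.41% and 21.9% of all genes at least 2-fold higher and 13%, 12.3% and 18.3% at least 2-fold lower. Ndrg1 was again at least 2-fold lower in each (0.0354, 0.448 and 0.368 times), and Adm was higher in the naive library (3.91 times) but lower in the physical library (0.390 times). These folds rest on 2, 4 and 2 other types. Cluster 4 was not among them in any library, and cluster 3 was left out of the naive library for its pericyte markers. In naive cortex clusters 4 and 3 held Cox4i2 at 84.1% and 45.5% of the pericyte level. Higd1b stood at 84.3% and 50.6% there and Ndufa4l2 at 81.2% and 51.2%. In the ischemic library the only types were clusters 0 and 3, since its smooth muscle and fibroblast classes held 47 and 10 cells. The folds of that library cannot be set beside those of the other libraries. Tbx18 smooth muscle cells held 357 and 166 CPM of Higd1b in the naive and physical libraries. In the 47 smooth muscle cells of the ischemic library, Higd1b stood at 41.6%, Cox4i2 at 69.9% and Ndufa4l2 at 74.2% of the pericyte level. The summed pericyte markers stood at 42.6% there.

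**Figure D2:**
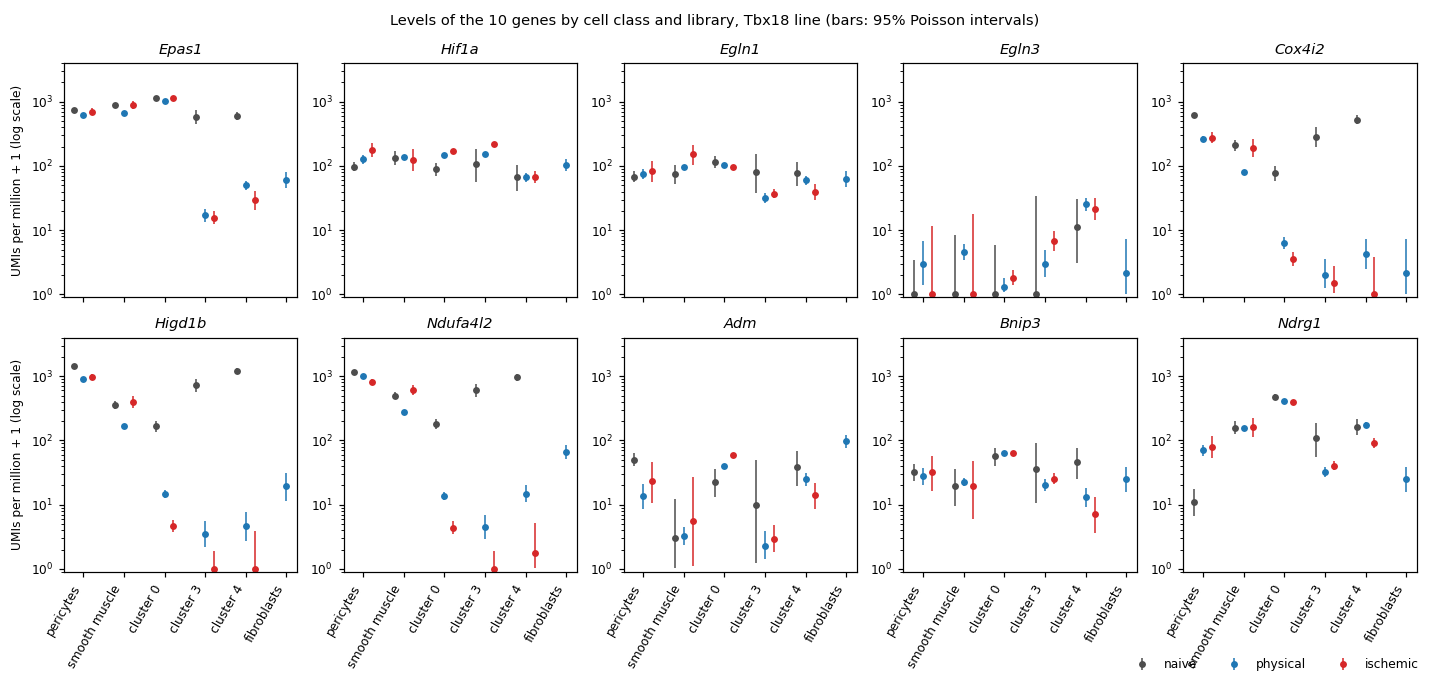
Levels of the 10 genes by cell class in the 3 libraries of the Tbx18 line (CPM + 1, log axis; points are summed cells of 1 library, bars are 95% Poisson intervals for counting error). Cox4i2, Higd1b and Ndufa4l2 were lower in the injured than in the naive pericytes (Cox4i2 625, 262 and 275 CPM), and Ndrg1 was higher (10.1, 69.4 and 79.5 CPM).

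Set beside their paralogs, the 3 isoforms differed in how far they took over. Shares were computed from UMIs, which count molecules and need no length correction. Ndufa4l2 made up 99.0%, 98.9% and 98.6% of the UMIs of Ndufa4l2 and Ndufa4 in NG2 pericytes, where Ndufa4 itself was at 18.7, 17.0 and 24.8 CPM. Higd1b made up 96.5%, 95.9% and 96.0% of its pair with Higd1a. Cox4i2 made up 43.0%, 46.3% and 38.5% of its pair with Cox4i1 (95% interval 42.2 to 43.7% in the naive library), so that Cox4i1 (733, 633 and 769.6 CPM) remained the larger part. NG2 pericytes thus carried almost no Ndufa4 mRNA beside Ndufa4l2, and both forms of subunit IV of cytochrome c oxidase. Smooth muscle cells stood between: their shares were 57.1%, 53.1% and 57.8% for Ndufa4l2, 80.9%, 70.2% and 78.1% for Higd1b and 14.3%, 12% and 8.71% for Cox4i2, with Ndufa4 at 426, 418 and 431 CPM. In RGP, OPC and OL of the ischemic library the Cox4i2 share was 0.104%, 0.668% and 0.264%. Cluster 8 resembled pericytes in Ndufa4l2 (98.2%, 98.1% and 95.8%) and Higd1b (96.4%, 92.5% and 92.1%) and had lower Cox4i2 shares (33.2%, 28.0% and 20.4%).

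In Tbx18 pericytes the Cox4i2 share was 55.2%, 29.6% and 32.0%, the Ndufa4l2 share 99.0%, 91.1% and 92.9% and the Higd1b share 96.2%, 93.9% and 94.5%. Naive Tbx18 pericytes were the only pericytes of the 6 libraries with more Cox4i2 than Cox4i1, and both injured libraries lay far below them. Ndufa4 stood at 11.4, 97.7 and 62.4 CPM. Markers of other cell types moved with this: as given above, smooth muscle and endothelial markers were higher in the injured Tbx18 pericytes, and their part in the Ndufa4 level was not tested. When only cells with no UMI of Cldn5, Mog or C1qa and at most 1 of Acta2 were kept (201, 279 and 64 cells, a choice made after seeing the data), Ndufa4 stood at 10.5, 18.5 and 8.97 CPM and Cox4i2 at 626, 319 and 359 CPM. The ischemic value of Ndufa4 in these cells rests on 2 UMIs (95% interval 1.09 to 32.4 CPM) and overlaps the intervals of the naive (5.72 to 17.5 CPM) and physical (10.6 to 30.0 CPM) libraries, so their order could not be read. Cox4i2 was lower than in the naive library after either injury.

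**Figure D3:**
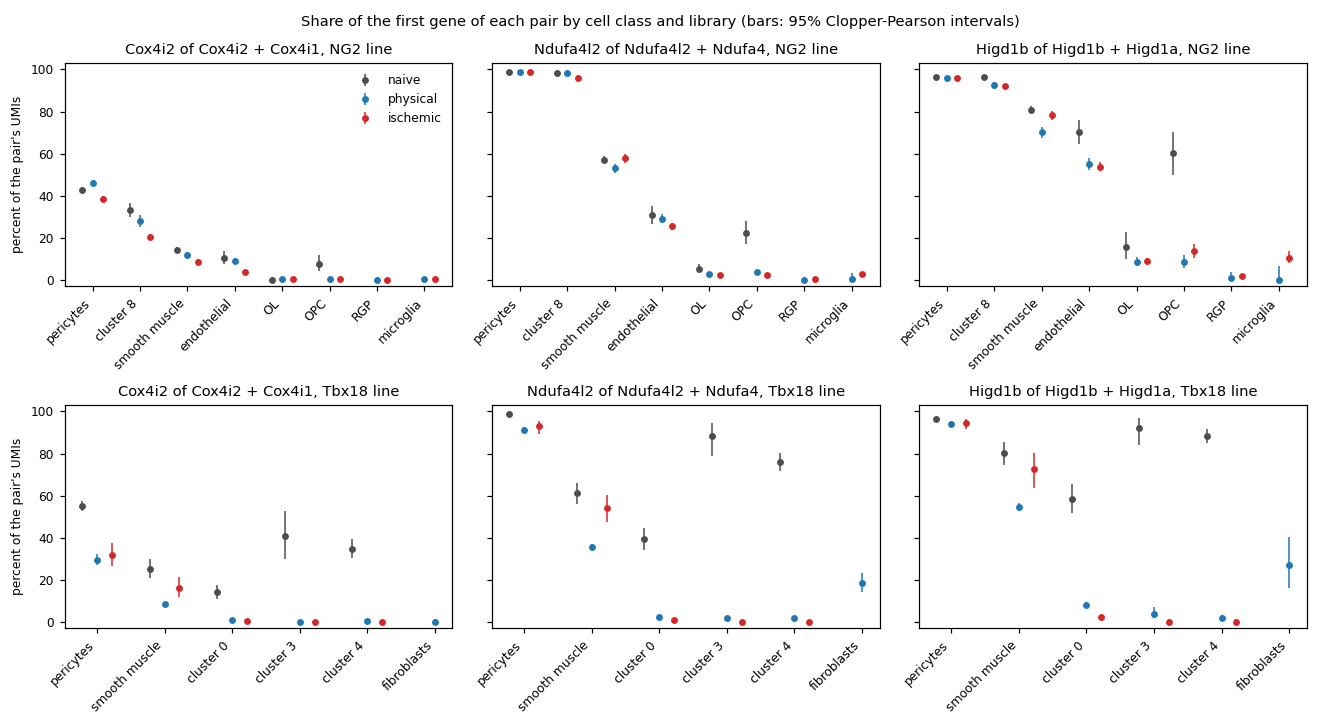
Share of each mitochondrial isoform in the UMIs of the isoform and its paralog, by class and library (percent; points are summed cells of 1 library, bars are exact 95% binomial intervals for counting error). Pericytes sat at 99.0%, 98.9% and 98.6% for Ndufa4l2 in the NG2 line, against 43.0%, 46.3% and 38.5% for Cox4i2.

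Pericyte markers were also detected in cells of other classes, which bears on the isoform levels read there. In NG2 endothelial cells the 6 pericyte markers summed to 14.8%, 10.2% and 8.83% of their level in pericytes. The isoforms, as a percentage of their pericyte level, stood at 12.5%, 10.4% and 9.64% for Higd1b, 12.2%, 10.4% and 8.70% for Ndufa4l2 and 13.4%, 10.3% and 5.77% for Cox4i2. Per 100 Higd1b UMIs there were 82.0, 87.4 and 74.6 Ndufa4l2 UMIs in endothelial cells, beside 84.0, 87.3 and 82.6 in pericytes. For Cox4i2 there were 27.3, 30.4 and 13.3 UMIs per 100 of Higd1b in endothelial cells, beside 25.7, 30.7 and 22.2 in pericytes, and in the ischemic library the intervals did not overlap (11 to 15.9 and 21.2 to 23.2). The source of these endothelial values was not tested. In smooth muscle cells the pericyte markers summed to 19.7%, 14.9% and 19.6% of the pericyte level, Higd1b stood at 22.3%, 19.1% and 23.5% and Cox4i2 at 24.5%, 21.4% and 19.3%. Ndufa4l2 was further above the markers, at 31.4%, 30.5% and 32.8%, with 118, 139.6 and 115 Ndufa4l2 UMIs per 100 of Higd1b. After thinning to 1000 UMIs, 41.0%, 40.7% and 36.6% of NG2 pericytes and 0%, 1.03% and 0.175% of OL had a Cox4i2 UMI. For Higd1b the same shares were 82.3%, 81.2% and 83.8% and 3.03%, 1.37% and 1.22%. OL are not known to express these genes, and the source of their UMIs was not tested.

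Among the response genes, Adm encodes adrenomedullin, a peptide that widens vessels. Adm was low in NG2 pericytes, at 20.5, 28.4 and 32.3 CPM, and the naive library was the lowest. Endothelial cells held 34.5, 60.1 and 82.7 CPM and cluster 8 held 18.9, 90.8 and 77 CPM, so the naive library was again the lowest in both. Smooth muscle cells held almost none (6, 3 and 0 UMIs). In OPC, Adm stood at 10.5, 38.0 and 10.9 CPM and in RGP at 27.8 and 5.02 CPM after physical and ischemic injury, so that in glial precursors the physical library was the higher of the injured pair. In Tbx18 pericytes the naive library was the highest, at 49.1, 12.8 and 22.7 CPM, from 73, 19 and 8 UMIs. Cluster 0 held 21.6, 38.5 and 58.3 CPM. The highest level of any class was 95.7 CPM (95% interval 76.2 to 119) in the 116 fibroblasts of the physical library.

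Bnip3, a receptor for the removal of mitochondria by autophagy, was present in every class. It stood at 41.6, 35.1 and 48.5 CPM in NG2 pericytes and 30.9, 26.9 and 31.2 CPM in Tbx18 pericytes. OL held the highest level (99.3, 122 and 107 CPM), and endothelial cells the next (90.9, 49.9 and 66.0 CPM). In pericytes, smooth muscle cells, endothelial cells and cluster 8 of the NG2 line, the physical library was the lowest of the 3. Ndrg1, which is known for a role in myelin upkeep, was a gene of OL and endothelial cells. OL held 771, 615 and 410.2 CPM, NG2 endothelial cells 361, 411 and 304 CPM, Tbx18 cluster 0 468, 414 and 395 CPM and NG2 smooth muscle cells 109, 132 and 119.8 CPM. In NG2 pericytes it stood at 6.33, 5.79 and 12.3 CPM from 81, 31 and 57 UMIs. In OL the ischemic level was the lowest and the naive level the highest, while in NG2 pericytes the ischemic level was the highest.

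In NG2 pericytes (clusters 0, 1 and 2), none of the 8 genes with a mean of at least 10 CPM differed by the 1.5-fold limit between ischemic and physical injury. Cluster 8, which the study also counts as pericytes, is given with the other classes below. A gene was counted as higher or lower where the CPM + 1 of the groups differed at least 1.5-fold and their mean reached that floor of 10 CPM. Of these 8 genes, 0 were higher and 0 lower, where 2.23% and 2.7% of all 8931 genes tested were. The ratio of ischemic to physical was 1.05 (95% interval 0.996 to 1.11) for Epas1, 1.23 (1.08 to 1.39) for Hif1a and 0.968 (0.847 to 1.11) for Egln1. For the isoforms it was 0.885 (0.837 to 0.935) for Cox4i2, 1.23 (1.19 to 1.26) for Higd1b and 1.16 (1.13 to 1.20) for Ndufa4l2. Cox4i2 was thus the isoform with the lower level after ischemic injury, and Higd1b and Ndufa4l2 had the higher, by amounts beyond counting error but under the 1.5-fold limit. Adm had a ratio of 1.14 (0.904 to 1.44) and Bnip3 of 1.38 (1.13 to 1.69). Both genes under the floor had wider intervals, Ndrg1 at 2.12 (1.35 to 3.40) and Egln3 at 1.90 (0.936 to 3.99). The median log2 ratio of the 8 was 0.20, beside -0.01 for all genes tested. A list of 8 stress-induced genes summed to 19837.5, 8718 and 18529.7 CPM in the naive, physical and ischemic NG2 pericytes, so the physical library also stood apart in these, as it did for Hif1a, Higd1b, Ndufa4l2 and Bnip3. The part of this in the ratios was not tested.

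Against naive cortex, 1 of the 8 genes above the floor was past the limit in NG2 pericytes. Under the floor, Ndrg1 (6.33, 5.79 and 12.3 CPM) and Egln3 (2.42, 2.61 and 4.96 CPM) were highest in the ischemic library and were not called. After physical injury 0 of 8 genes were higher and 0 lower (1.63% and 1.41% of all genes). After ischemic injury Adm was higher, with a ratio of 1.57 (95% interval 1.28 to 1.93), and none was lower (1.21% and 0.942% of all genes). Higd1b had ratios of 0.826 (0.807 to 0.846) after physical and 1.01 (0.990 to 1.04) after ischemic injury, and Epas1 of 0.970 (0.929 to 1.01) and 1.02 (0.974 to 1.06). The injured libraries share the naive library as their control here.

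Tbx18 pericytes differed more between libraries, but so did all genes. Between ischemic and physical injury 13.4% of all 9290 genes tested were higher and 12.1% lower, and with scaling by edgeR's TMM the higher genes went from 52.5% to 41.8% of those called. Of 9 genes above the floor, Adm was higher, at a ratio of 1.77 (95% interval 0.672 to 4.24) from 8 against 19 UMIs, an interval that includes no difference, and none was lower. Hif1a had a ratio of 1.40 (1.04 to 1.88), Ndufa4l2 of 0.818 (0.718 to 0.928), Epas1 of 1.11 (0.958 to 1.28) and Cox4i2 of 1.05 (0.832 to 1.32). The median log2 ratio of the 9 was 0.15, beside 0.03 for all genes. The ischemic library gave 86 cells to these values. After physical injury against naive, Ndrg1 was higher (6.88, 95% interval 3.98 to 12.7), and Cox4i2 (0.419, 95% interval 0.372 to 0.473), Higd1b (0.627, 95% interval 0.585 to 0.672) and Adm (0.261, 95% interval 0.149 to 0.437) were lower, where 14.4% and 12.8% of all genes were higher and lower. After ischemic injury Hif1a (1.83, 95% interval 1.34 to 2.48) and Ndrg1 (7.88, 95% interval 4.07 to 15.9) were higher and Cox4i2 (0.441, 95% interval 0.354 to 0.544) and Adm (0.462, 95% interval 0.192 to 0.960) lower (19.2% and 16.2% of all genes). With this many of all genes past the limit, counts of 1 to 3 of 9 set the list little apart. The summed pericyte markers were themselves lower in both injured libraries, as were Cox4i2 and Higd1b, and Cox4i2 fell further than the markers did. In the cells without markers of another type Ndrg1 stood at 11.2, 41.6 and 49.3 CPM, Hif1a at 99.3, 146 and 206 CPM, Adm at 52.3, 12.7 and 22.4 CPM and Higd1b at 1443, 1061 and 1054 CPM, so the order of the naive library against the injured ones was the same for each.

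**Figure D4:**
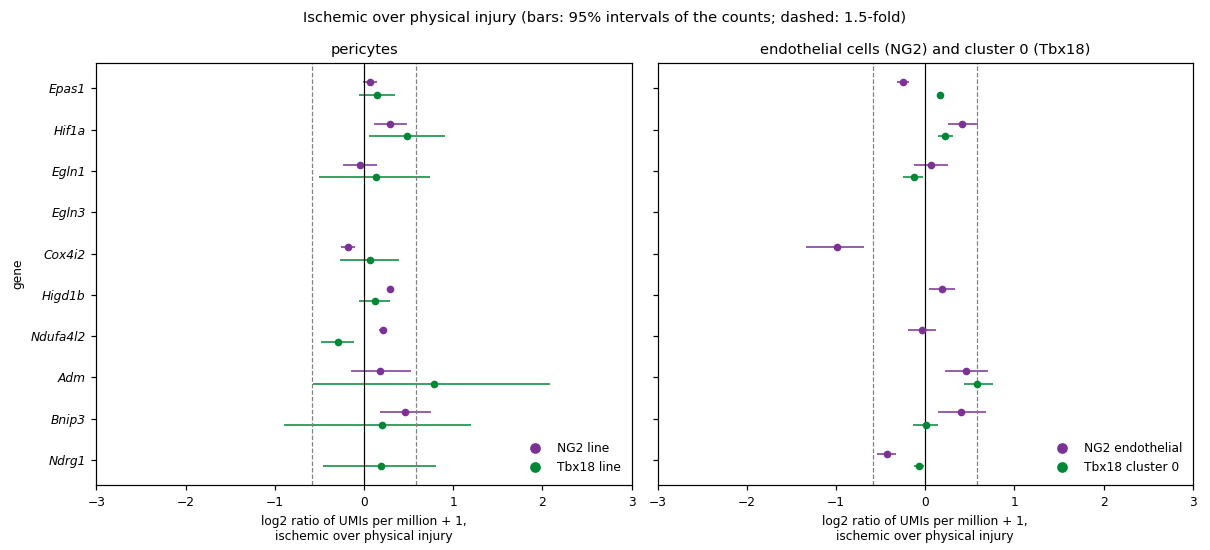
Log2 ratio of ischemic to physical injury (CPM + 1) for the genes above 10 CPM in pericytes of both lines (left) and in NG2 endothelial cells and Tbx18 cluster 0 (right), with 1 point per gene and line (bars are exact 95% binomial intervals for counting error, dashed lines mark 1.5-fold). In NG2 pericytes all 8 points lay inside the dashed lines, with ratios from 0.885 for Cox4i2 to 1.38 for Bnip3.

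In endothelial cells, which were sorted in the same libraries, Adm and Hif1a were higher and Epas1 lower after ischemic than after physical injury in the NG2 line, all 3 under the 1.5-fold limit. The ratios were 1.37 (1.16 to 1.63) for Adm, 1.34 (1.19 to 1.5) for Hif1a and 0.839 (0.803 to 0.878) for Epas1. Bnip3 stood at 1.32 (1.10 to 1.60) and Ndrg1 at 0.740 (0.688 to 0.796). Of 9 genes, 0 were higher and Cox4i2 was lower (0.496, 95% interval 0.396 to 0.620), with 3.2% and 5.21% of all genes higher and lower. Hemoglobin genes summed to 701, 8820.4 and 10312 CPM in these cells, so they were far higher in both injured libraries, and their part in the ratios was not tested. When cells holding 5 or more UMIs of Vtn, Atp13a5 and Kcnj8 together were left out, Cox4i2 stood at 1.94 CPM after ischemic and 13.5 CPM after physical injury (7 and 37 UMIs), a ratio of 0.144 (0.0542 to 0.328), but its mean was then under the floor of 10 CPM and it was not called. In cluster 0 of the Tbx18 line Adm was higher, at 1.51 (1.35 to 1.70), which lies at the 1.5-fold limit, as the 1 gene of 6 called (1.1% and 0.152% of all genes). Hif1a had a ratio of 1.17 (1.10 to 1.24) there and Epas1 of 1.12 (1.09 to 1.14), so Epas1 lay on opposite sides of 1 in the endothelial cells of the NG2 line and in this cluster.

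In the other classes 14 of the 61 pairs of a gene and a class were past the limit, 6 higher and 8 lower after ischemic injury. These pairs include those of endothelial cells and cluster 0, and of NG2 cluster 8 and Tbx18 cluster 4, which the study names pericytes. In NG2 smooth muscle cells Higd1b (1.51, 95% interval 1.38 to 1.65) and Bnip3 (1.62, 95% interval 1.05 to 2.52) were higher (3.62% and 3.85% of all genes higher and lower). In cluster 8 Bnip3 (4.10, 95% interval 2.29 to 8.11) and Ndrg1 (1.95, 95% interval 0.817 to 5.64, which includes no difference) were higher (6.81% and 10.7%). Bnip3 was thus past the limit in both of these classes. In pericytes its ratio was under the limit but inside the smooth muscle interval. In OPC, Higd1b was higher (1.65, 95% interval 1.05 to 2.63) and Adm lower (0.286, 95% interval 0.199 to 0.405), with 5.55% and 3.99% of all genes. In RGP, Adm (0.180, 95% interval 0.115 to 0.291) and Epas1 (0.473, 95% interval 0.341 to 0.673) were lower (7.39% and 12.2%). In OL none of 6 genes was past the limit (4.7% and 1.48%), and Ndrg1 had a ratio of 0.667 (0.642 to 0.693). Adm in glial precursors therefore stood opposite to Adm in endothelial cells. In Tbx18 cluster 4 Epas1 (0.579, 95% interval 0.391 to 0.839), Egln1 (0.651, 95% interval 0.465 to 0.90), Adm (0.549, 95% interval 0.301 to 0.947) and Ndrg1 (0.522, 95% interval 0.423 to 0.640) were lower, in a cluster where 4.44% and 24.5% of all genes were higher and lower. In cluster 3, none of 5 was past the limit (4.69% and 1.98%), and Hif1a had a ratio of 1.43 (1.29 to 1.59). Without the cells that held pericyte markers, 3 pairs were higher and 8 lower of 48, and Ndrg1 in OL was then among the lower. The share of all genes past the limit was not computed for the cells left, so these counts have no background. The calls in cluster 8, whose cells carry these markers, and that of Higd1b in OPC were no longer made.

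Against naive cortex, Adm and Hif1a were higher in several classes besides the pericytes given above. In pericytes, Adm was higher after ischemic injury in the NG2 line and lower after both injuries in the Tbx18 line. Hif1a was past the limit in pericytes only after ischemic injury in the Tbx18 line, where it was higher. In NG2 endothelial cells Adm was higher after physical (1.74, 95% interval 1.12 to 2.84) and ischemic injury (2.40, 95% interval 1.56 to 3.87), and Hif1a was higher after ischemic injury (1.85, 95% interval 1.42 to 2.47). Bnip3 was lower after physical injury (0.548, 95% interval 0.406 to 0.750) and Cox4i2 lower after ischemic injury (0.378, 95% interval 0.269 to 0.539), where 9.96% and 8.2% of all genes were higher and lower after physical and 8.48% and 10.7% after ischemic injury. Tbx18 cluster 0 gave the same direction for Adm, at 1.78 (1.09 to 3.15) and 2.70 (1.65 to 4.75), and for Hif1a, at 1.68 (1.31 to 2.19) and 1.97 (1.54 to 2.55) (8.93% and 13.3%, then 9.1% and 12.1% of all genes). In NG2 cluster 8 Adm was higher after both injuries, at 4.80 (2.68 to 9.23) and 4.07 (2.36 to 7.58). Bnip3 there was lower after physical (0.389, 95% interval 0.182 to 0.783) and higher after ischemic injury (1.60, 95% interval 1.08 to 2.45). Hif1a was also higher there after ischemic injury, at the levels given above. Of 9 genes in cluster 8, 1 was higher and 2 lower after physical injury, and 3 were higher and 0 lower after ischemic injury. The shares of all genes higher and lower were 13.9% and 19.9%, then 14.1% and 23.1%. In OPC Adm was higher after physical injury (3.61 (1.62 to 9.99), from 6 naive UMIs) and Hif1a after ischemic injury (1.53, 95% interval 1.21 to 1.97), while Epas1 was lower after ischemic injury (0.620, 95% interval 0.476 to 0.818), with 9.16% and 9.79%, then 13.9% and 11.6% of all genes. In OL Epas1 was higher after both, at 2.31 (1.66 to 3.28) and 2.12 (1.54 to 3.00), and Ndrg1 was lower after ischemic injury (0.532, 95% interval 0.498 to 0.569), with 5.49% and 5.08%, then 11.2% and 6.33% of all genes.

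The 3 isoforms were lower after injury than in the naive library in several of these classes, together with the pericyte markers. In OPC the ratios after physical injury were 0.0972 (0.0412 to 0.22) for Cox4i2 and 0.0829 (0.0521 to 0.130) for Higd1b, while pericyte markers summed to 1665, 226 and 276 CPM in the naive, physical and ischemic libraries. In Tbx18 cluster 0 the ratio of Higd1b was 0.0820 (0.0645 to 0.104), with pericyte markers at 3572, 333 and 98.1 CPM. In Tbx18 smooth muscle cells Cox4i2 (0.383, 95% interval 0.311 to 0.476), Higd1b (0.465, 95% interval 0.397 to 0.548) and Ndufa4l2 (0.551, 95% interval 0.483 to 0.631) were lower after physical injury, the 3 of 8 genes called, where 9.81% and 21.1% of all genes were higher and lower, and pericyte markers stood at 7351 and 2314 CPM. In NG2 smooth muscle cells no gene was past the limit against naive (2.42% and 3.18%, then 2.48% and 3.18% of all genes), and pericyte markers stood at 6606, 4912 and 6536 CPM. The part of the pericyte markers in these ratios was not tested.

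In naive cortex, pericytes of the lines differed in several of the genes. Adm was 2.39 (95% interval 1.82 to 3.11) times as high in Tbx18 as in NG2 pericytes. Egln1 (0.646, 95% interval 0.522 to 0.792), Higd1b (0.661, 95% interval 0.632 to 0.691) and Ndufa4l2 (0.653, 95% interval 0.622 to 0.686) were lower, while Epas1 (1.31, 95% interval 1.23 to 1.40) and Cox4i2 (1.13, 95% interval 1.06 to 1.21) were on the other side of 1. That makes 1 higher and 3 lower of 8, where 12% and 11.3% of all genes were higher and lower. The line and the library cannot be told apart here, since each line had 1 naive library.

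Within the NG2 pericytes the clusters, which were drawn from these same values, had the isoforms in the same order in all 3 libraries. Cluster 1 held the most Higd1b, 2584, 2190.0 and 2821 CPM, followed by cluster 0 with 2101, 1796 and 2130.0 CPM and cluster 2 with 1849, 1530.0 and 1810.3 CPM. Cox4i2 had the same order, at 651, 661 and 623 CPM in cluster 1, 552, 545 and 464 CPM in cluster 0 and 468, 482 and 416 CPM in cluster 2. Cluster 8 was lower in both (1573, 1411 and 1696 CPM of Higd1b and 359.8, 334 and 246 CPM of Cox4i2). In cluster 10, the smallest, of 44, 23 and 43 cells, Higd1b stood at 382, 109 and 241 CPM, while Epas1 at 624, 450.1 and 541 CPM was near the level of the other pericytes. Its cells were shallow, with a median of 2253 UMIs.

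A wider list of 56 hypoxia genes (oxygen sensing, glycolysis, mitochondria, secreted signals, and matrix and redox enzymes) was compared in the same way. In NG2 pericytes 3 of the 42 above the floor were higher after ischemic than after physical injury and 0 lower, or 7.14% beside 2.23% of all genes higher, with a median log2 ratio of 0.05, beside -0.01 for all genes. Among them were Bhlhe40, a transcriptional repressor (50.9 against 23.9 CPM), and Stc1, a secreted glycoprotein (35.6 against 22.8 CPM). None of its 15 glycolysis genes above the floor was higher. In NG2 endothelial cells 7 of 44 were higher and 0 lower (15.9%, beside 3.2% of all genes higher), 3 of 15 glycolysis genes among them. In Tbx18 cluster 0, 2 of 43 were higher and 0 lower (4.65%, beside 1.1%). In Tbx18 pericytes 6 of 44 were higher and 7 lower (13.6% and 15.9%, beside 13.4% and 12.1% of all genes). The most different there were Hmox1, which breaks down heme (8.51 against 82.9 CPM), Angptl4, a secreted inhibitor of lipoprotein lipase (28.4 against 9.43 CPM), Vegfa, the vascular growth factor (14.2 against 6.06 CPM), Cxcl12, a chemokine (93.7 against 195 CPM), and Lonp1, a mitochondrial protease (31.2 against 15.5 CPM). The intervals of the log2 ratio of Vegfa (-0.70 to 2.96) and Lonp1 (-0.17 to 2.11) include no difference.

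Over the 27 profiles of NG2 clusters by library with at least 50 cells, Higd1b and Ndufa4l2 were each other's nearest gene, while Tbxa2r was nearest to Cox4i2, with both other isoforms next. Pearson's r of log2(CPM + 1) was taken against 8143 genes, as a description, since profiles of a library share its depth and its free RNA. The genes most like Cox4i2 were Tbxa2r (r = 0.995), Higd1b (r = 0.993) and Ndufa4l2 (r = 0.992), those most like Higd1b were Ndufa4l2 (r = 0.996), Tbxa2r (r = 0.996) and Rarres2 (r = 0.993), and those most like Ndufa4l2 were Higd1b (r = 0.996), Rarres2 (r = 0.996) and Tbxa2r (r = 0.993). For Epas1 they were Dab2ip (r = 0.967), Tgfbr3 (r = 0.954) and Prxl2c (r = 0.954). For Hif1a they were Rab20 (r = 0.870), Rbbp8 (r = 0.853) and Etf1 (r = 0.843), and for Egln3 Afg3l1 (r = 0.747), Ywhag (r = 0.729) and Tmem167 (r = 0.723). In the 15 profiles of the Tbx18 line these pairs had r = 0.986 for Higd1b with Ndufa4l2, 0.945 for Epas1 with Dab2ip and 0.415 for Hif1a with Rab20. Cox4i2 and Tbxa2r had r = 0.962 there.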

How the data were processed

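RNA of sorted tdTomato-positive cortex cells was measured by droplet 3′ single-cell sequencing in 6 libraries, 1 per line and condition. The deposited values are raw UMI counts per gene and cell. The authors made these counts with Cell Ranger (version 7.0.0 in the submitters' processing notes, which list more than 1 version) and the mm10 (GRCm38) genome. In Seurat they kept cells with at least 200 genes, with gene and UMI numbers no more than 2 SD from the mean and with at most 12% mitochondrial transcripts, removed Gm42418 and AY036118, and clustered the integrated libraries. The deposited metadata give the percent of mitochondrial UMIs of each cell, computed by the authors, and cluster numbers, and names come from the study.

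From the counts, UMIs were summed per class and library and divided by the total UMIs (CPM, Python 3.11.15, scipy 1.17.1). Ratios were taken of CPM + 1, for genes with a mean of at least 10 CPM, in classes of at least 50 cells (20 to be listed). The limit was 1.5-fold between conditions and 2-fold between types, and printed ratios and their intervals are of CPM. With 1 library per group no p-value exists. Intervals and a count of 0 cover counting error only. The code for ratios and their intervals was tested on simulated Poisson counts of NG2 pericytes, which hold no spread between cells or libraries. No doublet caller was run, and an alternative left out the 5% of cells with the most UMIs. Other alternatives were edgeR 4.0.16 TMM scaling, other totals, filters, limits and clusters. All genes named are the 10 members, their paralogs, the 5 most different genes of the wider hypoxia list in the pericytes of each line (1 of which is not reported here), and the 3 genes most like each of 6 members. The members, marker lists and gene lists were chosen with earlier results of these data known.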

Additional observations from a re-analysis of the deposited data

Results flagged for a closer look

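For 3 genes, ischemic against physical injury gave opposite signs in the lines, with counting intervals that did not include 0. In each case the difference between the lines was not tested, since each rests on 1 library per group. In pericytes the log2 ratio of Ndufa4l2 was 0.21 in the NG2 line and -0.29 in the Tbx18 line. For Epas1 it was -0.25 in NG2 endothelial cells and 0.16 in Tbx18 cluster 0, the cluster that carries endothelial markers. For Higd1b it was 0.19 in NG2 endothelial cells and -1.65 in Tbx18 cluster 0. That of Higd1b held only with all cells kept. Without the cells that held pericyte markers, a choice made after seeing the data, its ratio was under 1 in both. It was then 0.755 (0.567 to 1.004) in NG2 endothelial cells and 0.337 (0.235 to 0.475) in cluster 0. Its levels in cluster 0 were 3.62 CPM after ischemic and 13.5 CPM after physical injury, a mean under the 10 CPM floor for a call. The pericyte markers summed to 98.1 and 333 CPM there.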

How the results depend on the processing

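No paired analysis was possible because each group was 1 library, and for the same reason no library could be left out of a group. Of the values that answer a comparison, 21 moved under the alternatives set at the start, all of them given here. A count was taken as moved where it changed more than 1.5-fold or to or from 0, and a share where it left its interval. Smaller changes are not all listed. The log2 ratios of single genes in pericytes, ischemic over physical injury, were counted apart. Under these alternatives 209 of them stayed inside their counting interval, 26 left it and 1, of a gene called in the main setting, changed sign. The sign was checked only for genes called in the main setting. The others therefore include further changes of sign, such as that of Cox4i2 in Tbx18 pericytes with clusters 2 and 4. The 26 are not listed one by one. In NG2 pericytes the count of genes higher after ischemic than physical injury was 0, and became 2 with no filter (Egln3 and Ndrg1), 1 with cells thinned to 1000 UMIs (Hif1a), 1 with clusters 0, 1, 2, 8 and 10 (Bnip3), 1 in cluster 0 alone (Ndrg1) and 1 in cluster 2 alone (Bnip3). In Tbx18 pericytes it was 1 (Adm), and became 2 without the 5% of cells with the most UMIs (Hif1a and Adm), and 0 at a mean of 50 CPM, at 2-fold, or with clusters 2 and 4 together, while thinning to 1000 UMIs left it at 1 but with Egln1 in place of Adm. The count of lower genes there, 0, became 1 with no filter (Egln3) and 4 with clusters 2 and 4 (Cox4i2, Higd1b, Ndufa4l2 and Ndrg1), under which the log2 ratio of Adm turned to -0.38. Against the highest other type, 2 genes in place of 1 were lower in NG2 pericytes in every library (Bnip3 and Ndrg1). In the Tbx18 line, Ndrg1 was no longer lower in every library, a count of 0, with every cell weighted equally, at 4-fold, or with clusters 2 and 4. At 4-fold Ndufa4l2 was also no longer among the genes higher in every Tbx18 library, with a fold of 3.47 in the naive one. That change was too small to be taken as a move. With the clusters of the table of both naive libraries, 2 genes were higher in Tbx18 than NG2 pericytes (Adm and Ndrg1). As means over cells, the isoform shares were 41.7% for Cox4i2 and 96.0% for Higd1b in naive NG2 pericytes, 98.2% for Ndufa4l2 and 95.02% for Higd1b in ischemic NG2 pericytes, and 95.2% for Higd1b in naive Tbx18 pericytes. Alternatives chosen after seeing the data gave 3 in place of 6 higher pairs in the other types, without cells that hold pericyte markers, and a log2 ratio of -0.20 for Ndufa4 in ischemic over naive Tbx18 pericytes without markers of another type. The causes were not tested. Scaling moved the median of all genes by less than 0.1 on the log2 scale. Depth limits Egln3 and, in Tbx18 pericytes, Adm and Bnip3.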
